A study of Mus musculus with 9 samples.

Results

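The immediate early genes of the AP-1 type, taken here as Fos, Fosb, Jun, Junb, Egr1, Ier2, Atf3, Dusp1, Zfp36 and Btg2, were followed in the colon of mice kept in a standard or an enriched environment. The genes were listed by name and looked up by symbol, and all 10 were found among the 22262 genes with a count in any of the 9 libraries. The RNA came from wild-type (WT) female C57BL/6N mice aged 12 months, 4 from the standard environment (WT_SE mice 1, 2, 3 and 5) and 5 from the enriched environment (WT_EE mice 1 to 5). WT_SE mice shared ordinary cages in small groups, whereas WT_EE mice lived 8 to a large cage with extra bedding and nesting material, tunnels and running wheels. All mice were killed by cervical dislocation in the light phase. A piece of colon, labelled as upper colon for these samples, was flushed of its contents with buffer and snap frozen. The whole wall with its epithelium, muscle, nerves and immune cells thus entered the RNA. The study asks whether enrichment changes the state of the gut. A library stands for 1 mouse as the labels number them, and the p-values measure the spread between these mice. Mice were housed together by environment, and the labels used here name no cage. The tests treat each mouse as independent, and cage and environment cannot be told apart. In such bulk tissue, fewer cells of a type and less RNA per cell cannot be told apart.

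Immediate early genes are switched on within minutes of a stimulus, without new protein synthesis, because the factors that start them, such as serum response factor and CREB, wait on their promoters and are activated by kinases. Their transcripts are short-lived, so that a level in tissue follows the recent past of the cells. Fos and Jun proteins pair through leucine zippers to form the transcription factor AP-1, which drives proliferation, wound repair and stress responses in the gut epithelium and muscle, while Dusp1, Zfp36 and Btg2 act as brakes that remove the kinase signal, the transcripts or the cell division that follow.

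The sequences around the start of these genes show which of those control letters are shared. RefSeq windows of GRCm38.p6 held 8 of the 10 genes (all but Egr1 and Ier2), and the 250 bases before the start were searched on both strands for the cyclic AMP response element TGACGTCA, its shorter core TGACG (which lies inside the full element), the AP-1 element TGANTCA, the EGR element GCGGGGGCG and the serum response CArG box. The core TGACG was found in 6 of the 8 windows against 17.77% of all 32851 windows of this length, the full element in 2 (Btg2 and Dusp1) against 1.55%, the EGR element in 2 (Fosb and Zfp36) against 2.57%, the CArG box in 1 (Zfp36) against 1.47% and the AP-1 element in 0 against 6.75%. These matches are descriptions of letters and not measured binding sites. Sites outside the 250 bases, and other spellings of an element, were not searched, so a gene without a match may still hold one. The windows of Fos (chr12:85473640-85473889, + strand), Fosb (chr7:19310046-19310295, − strand), Atf3 (chr1:191183334-191183583, − strand) and Btg2 (chr1:134079156-134079405, − strand) are given. Fos and Fosb were picked as the genes called by environment below, and Atf3 and Btg2 as the pair with the highest r across mice. Neither the calls nor the pair passed adjustment, and a link to the promoter letters was not tested. Each window runs 5′ to 3′ on the strand of its gene and ends at the base before the RefSeq start, with the matches in capitals (CGTCA is the core on the opposite strand).
Fos: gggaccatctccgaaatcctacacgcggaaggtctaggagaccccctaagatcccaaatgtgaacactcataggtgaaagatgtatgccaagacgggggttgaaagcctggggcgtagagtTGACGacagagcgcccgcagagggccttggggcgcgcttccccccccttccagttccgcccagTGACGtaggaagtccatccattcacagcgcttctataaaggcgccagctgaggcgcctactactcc
Fosb: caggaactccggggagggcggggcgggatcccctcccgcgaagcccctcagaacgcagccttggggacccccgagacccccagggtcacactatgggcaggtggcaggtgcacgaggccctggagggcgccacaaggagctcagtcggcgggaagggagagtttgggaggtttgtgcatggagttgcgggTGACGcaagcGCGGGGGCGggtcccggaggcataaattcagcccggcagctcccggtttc
Atf3: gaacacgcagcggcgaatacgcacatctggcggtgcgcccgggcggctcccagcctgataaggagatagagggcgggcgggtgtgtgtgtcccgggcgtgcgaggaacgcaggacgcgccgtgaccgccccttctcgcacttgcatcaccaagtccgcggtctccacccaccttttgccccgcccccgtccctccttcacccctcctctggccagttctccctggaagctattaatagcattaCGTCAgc
Btg2: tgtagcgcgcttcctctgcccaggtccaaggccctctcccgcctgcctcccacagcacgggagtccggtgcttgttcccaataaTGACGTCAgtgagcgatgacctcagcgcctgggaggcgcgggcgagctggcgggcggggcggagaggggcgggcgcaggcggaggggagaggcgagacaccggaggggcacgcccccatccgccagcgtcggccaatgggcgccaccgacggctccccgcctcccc
Fos held the core at 129 and at 66 bases before its start, Fosb at 60 with the EGR element following at 50, Atf3 at 7, and Btg2 the full element at 166.

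At the other end of the transcript, AU-rich letters mark messages for fast decay, and Zfp36 encodes tristetraprolin, a protein that binds such letters. In the last 300 bases of the longest GENCODE M21 coding transcript, the pentamer ATTTA occurred in 7 of the 10 genes and at least 2 times in 6, against 45.39% and 16.36% of 16251 transcripts. The nonamer TTATTTATT, which contains ATTTA, occurred in 3 of the 10, against 2.23%. These 3 sites lie in the last exon, in the 3′ untranslated region, of Fos (chr12:85477103-85477131, + strand), Zfp36 (chr7:28376951-28376979, − strand) and Dusp1 (chr17:26505870-26505898, − strand), on GRCm38 coordinates with 10 flanking bases on each side and the nonamer in capitals.
Fos: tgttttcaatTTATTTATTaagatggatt
Zfp36: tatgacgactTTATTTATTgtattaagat
Dusp1: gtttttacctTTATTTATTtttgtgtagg
The nonamer ended 152, 177 and 290 bases before the annotated transcript end in Fos, Zfp36 and Dusp1. Of the 10 genes, these 3 include the one with the widest spread between mice relative to counting noise, Fos, and the one with the least, Zfp36.

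Libraries were made from the 3′ ends of messenger RNA with molecular tags (UMIs), so that each molecule counts once and counts do not grow with transcript length. Totals lay between 295535 and 454043 molecules per library, at which a floor of 3 counts equals 6.61 to 10.2 CPM (counts scaled to a common library size by TMM, edgeR's normalization). The floor covers counting error only, while the intervals of the fold changes come from the edgeR fit and include the spread between mice. Markers of colon (5 of 5) and of epithelium (6 of 6) were present in every group, at summed levels of 1943 to 2753 and 1621 to 2357 CPM, and 0 of the 6 epithelial markers differed by environment. The smooth muscle markers summed to 1540 to 1974 CPM in WT_SE and 1508 to 2841 CPM in WT_EE, and 2 of 6 (Acta2 and Des) were higher in WT_EE. Of 4 neutrophil markers, the defining S100a8 and S100a9 were at 0. The B cell markers were lower in WT_EE for 3 of the 4 with counts. They summed to 54.8 and 64.0 CPM in WT_SE mice 1 and 2 and to at most 8.64 CPM in the other libraries. The adipocyte markers summed to 593 CPM in WT_SE 1 and to 61.3 to 282 CPM in the other libraries. Slc10a2, the ileal bile acid transporter, was at 103 to 117 counts in 4 libraries (WT_SE 2 and 3, WT_EE 1 and 3) and at 3 to 26 in the other 5. Hoxb13, also listed as a marker of position along the gut, was at 20 to 56 counts in WT_SE 5 and WT_EE 2 to 5. It was at 4 in WT_SE 1 and at 0 in WT_SE 2, WT_SE 3 and WT_EE 1. Whether all pieces came from the same position was not tested. The names of the WT_SE 1 and 3 libraries have another ending (L3) than those of the other 7 (L2).

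Environment differences were tested by edgeR's quasi-likelihood F test on the counts of 17441 genes, and a gene was called at an unadjusted p under 0.05, the limit the study used. Among the 10 immediate early genes, 2 were called, Fos and Fosb, both higher in WT_EE. Over all genes 7.65% were called, 4.31% higher and 3.34% lower in WT_EE, so that the 2 of 10 stood about 1 gene above the background. Of the calls over all genes 56.3% were higher in WT_EE, and 45% with upper quartile normalization. After Benjamini-Hochberg adjustment 0 of the 10 passed with edgeR, against 0.0401% of all genes, and their adjusted p-values ran from 0.533 to 0.992. DESeq2 called 0 of the 10 at an unadjusted p under 0.05. The 10 fold changes were all above 0, with a median log2 fold change of 0.23 against 0.01 over all genes tested, where 51.14% were above 0. The groups overlapped in all 10 genes, while 2.58% of all genes had groups that did not overlap. The members share mice and respond to common stimuli, so that 10 positive signs are not 10 separate observations.

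**Figure D1:**
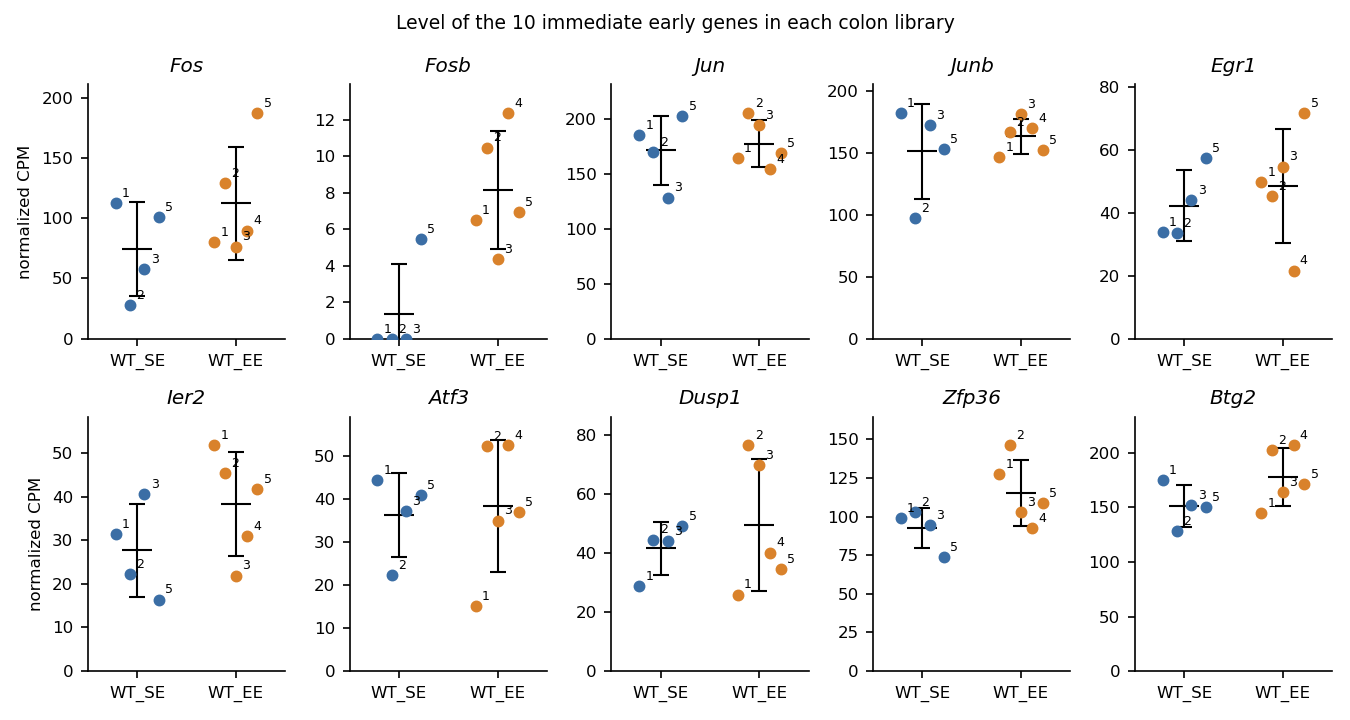
Level of each of the 10 genes in each library (points, labelled with the mouse number; vertical axis in TMM-normalized CPM, on a scale of its own for each gene), with the mean (long tick) and SD (bars) of the 4 WT_SE and 5 WT_EE mice. The groups overlap for every gene, Fos spans 27.8 to 187 CPM, and Fosb is at 0 in 3 of the 4 WT_SE mice.

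Fos, a strongly inducible subunit of AP-1, was at 112, 27.8, 57.5 and 101 CPM in WT_SE mice 1, 2, 3 and 5 and at 79.9, 129, 76.5, 89.7 and 187 CPM in WT_EE mice 1 to 5. WT_SE 2 was the lowest and WT_EE 5 the highest, 6.73-fold apart, and the upper pair of WT_SE mice lay among the WT_EE mice. WT_SE averaged 74.7 ± 39.2 CPM (n = 4, SD) against 112 ± 46.8 CPM (n = 5, SD) for WT_EE. The edgeR fit gave a log2 fold change of 0.56 (SE 0.27, 95% interval 0.02 to 1.12) with an unadjusted p of 0.0443 and an adjusted p of 0.631, and a two-sided exact permutation test of the mean CPM gave p = 0.262. The edgeR call was lost when WT_SE 2 was left out (0.29, an unadjusted p of 0.256) and when WT_EE 5 was (0.29, a p of 0.292), as well as without WT_SE 3 (0.48, a p of 0.115) or WT_EE 2 (0.52, a p of 0.0680). Among the 7 libraries with the L2 ending alone, the edgeR estimate was 0.80 with an unadjusted p of 0.0288.

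The spread of Fos between mice exceeded counting noise by far. Its counts were 43, 10, 17 and 37 in WT_SE and 37, 37, 35, 29 and 81 in WT_EE, which gave a chi-square of 7.94 per degree of freedom within environments (7 degrees), where counting noise alone gives about 1. For the 4838 genes that averaged 20 to 80 counts per library, the median was 1.29 and the 95th percentile 4.34, and 84 genes (1.74%) were at or above Fos. The other 9 immediate early genes lay between 1.03 (Zfp36) and 2.63 (Dusp1), so that Fos was the member with the widest spread for its depth.

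The level of Fos also ran with Slc10a2. In the 4 libraries with 103 to 117 Slc10a2 counts Fos was at 27.8 to 79.9 CPM, and in the 5 with 3 to 26 it was at 89.7 to 187 CPM, without overlap. Fos was the only 1 of the 10 genes with this separation, which 2.91% of all genes tested showed. Atf3 missed it narrowly, at 15.1 to 37.2 CPM in the libraries rich in Slc10a2 and 37.0 to 52.6 CPM in the others. Of the 10 genes, 7 were higher on average in the libraries poor in Slc10a2. Each set of libraries held mice of both environments. Within the 4 libraries rich in Slc10a2, Fos was at 27.8 and 57.5 CPM in WT_SE and 79.9 and 76.5 CPM in WT_EE, and within the other 5 at 112 and 101 CPM in WT_SE and 129, 89.7 and 187 CPM in WT_EE. With the Slc10a2 level as a covariate, the edgeR estimate for the environment fell to 0.26 with an unadjusted p of 0.293. The smooth muscle markers separated the same libraries (1508 to 1664 CPM against 1864 to 2841 CPM), and with them as a covariate the estimate was 0.43, with an unadjusted edgeR p of 0.0875. The sets were drawn after the counts were seen, and the part of gut position or muscle content in the level of Fos was not tested.

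**Figure D2:**
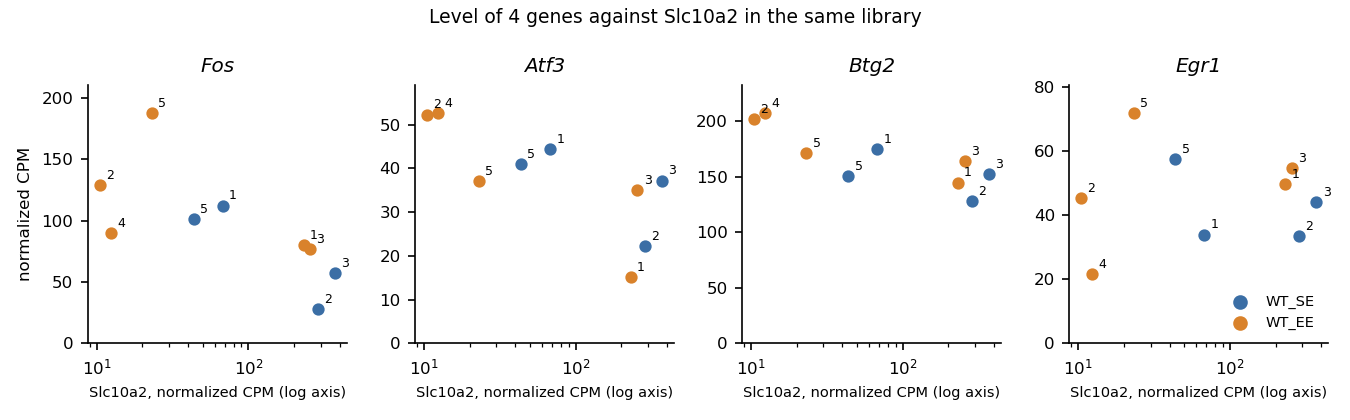
Level of Fos, Atf3, Btg2 and Egr1 (vertical axes, TMM-normalized CPM) against that of Slc10a2 (horizontal log axis, normalized CPM) in each of the 9 libraries, coloured by environment and labelled with the mouse number. The 5 libraries with the least Slc10a2 hold the 5 highest Fos levels (89.7 to 187 CPM), while Egr1 shows no such separation.

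Fosb, a close relative of Fos that pairs with Jun proteins, was counted 0, 0, 0 and 2 times in WT_SE mice 1, 2, 3 and 5 and 3, 3, 2, 4 and 3 times in WT_EE mice 1 to 5. All 5 WT_EE libraries held at least 2 molecules, and only WT_SE 5 among the WT_SE libraries held any. In normalized units these were 1.37 ± 2.73 CPM (n = 4, SD) and 8.12 ± 3.23 CPM (n = 5, SD). The edgeR test gave an unadjusted p of 0.0229 and an adjusted p of 0.533, and the two-sided exact permutation test gave p = 0.0238, where the smallest p this design allows is 0.00794. As 8 of the 9 libraries were at or under 3 counts, no fold change is given, and a level below the floor was not detectable at this depth. The edgeR call was lost without WT_SE 1 (an unadjusted p of 0.0700), WT_SE 2 (0.0636), WT_SE 3 (0.0538) or WT_EE 4 (0.0520). It was also lost among the libraries with the L2 ending alone (0.181), with Slc10a2 (0.0748) or smooth muscle (0.0625) as a covariate, and with DESeq2 (0.0544).

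Jun, the main partner of Fos, was at 185, 170, 129 and 202 CPM in WT_SE and 164, 206, 195, 155 and 169 CPM in WT_EE. Neither group stood above the other, and the means of 171 ± 31.6 CPM (n = 4, SD) and 178 ± 21.6 CPM (n = 5, SD) differed by less than the spread between mice. The log2 fold change was 0.04 (95% interval −0.28 to 0.35), with an unadjusted edgeR p of 0.816, and it turned to −0.01 with upper quartile normalization. The interval leaves room for a change of either sign.

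Junb, a Jun relative that is itself strongly inducible, was at 183, 97.5, 172 and 153 CPM in WT_SE and 147, 167, 181, 170 and 153 CPM in WT_EE. WT_SE 2 was again the lowest library, and the other 3 WT_SE mice lay within or at the edge of the WT_EE range. The log2 fold change was 0.11 (95% interval −0.22 to 0.44) with an unadjusted edgeR p of 0.500, and it was −0.05 without WT_SE 2. Junb overlaps Prdx2, a peroxiredoxin gene with 658 counts over all libraries, on the other strand, and Jun overlaps the antisense transcript Junos (12 counts). The kit keeps strand, but the strand setting of the counting is not given in the sources used here.

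Atf3, a stress-induced factor that pairs with Jun proteins and represses many targets, was at 44.4, 22.3, 37.2 and 41.0 CPM in WT_SE and 15.1, 52.3, 35.0, 52.6 and 37.0 CPM in WT_EE. WT_EE mice held both the lowest and the highest level. The log2 fold change of 0.02 (95% interval −0.63 to 0.67, an unadjusted edgeR p of 0.943 and an exact permutation p of 0.778) was the smallest of the 10 genes, and it was −0.29 with Slc10a2 as a covariate and −0.02 with upper quartile normalization.

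Egr1, a zinc finger factor induced beside Fos by serum response factor, was at 33.9, 33.4, 44.0 and 57.4 CPM in WT_SE and 49.7, 45.3, 54.6, 21.6 and 71.7 CPM in WT_EE. Its extremes, WT_EE 4 and WT_EE 5, belonged to the same environment. The means were 42.2 ± 11.3 CPM (n = 4, SD) and 48.6 ± 18.1 CPM (n = 5, SD), with a log2 fold change of 0.24 (95% interval −0.34 to 0.82, an unadjusted edgeR p of 0.403 and an exact permutation p of 0.548).

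Ier2, a nuclear regulator induced with the AP-1 genes, was at 31.3, 22.3, 40.6 and 16.4 CPM in WT_SE and 51.8, 45.3, 21.9, 30.9 and 41.6 CPM in WT_EE. The 3 highest libraries were WT_EE, while WT_EE 3 lay below 3 of the 4 WT_SE mice. The means of 27.6 ± 10.6 CPM (n = 4, SD) and 38.3 ± 11.9 CPM (n = 5, SD) gave a log2 fold change of 0.49 (SE 0.33, 95% interval −0.18 to 1.16), with an unadjusted edgeR p of 0.144. Among the 7 libraries with the L2 ending alone the estimate was 0.99 with an unadjusted edgeR p of 0.0272, since WT_SE 1 and 3, the upper pair of WT_SE mice for Ier2, were left out.

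Dusp1, the phosphatase that switches off the stress-activated and other MAP kinases, was at 28.7, 44.6, 44.0 and 49.2 CPM in WT_SE and 25.9, 76.7, 69.9, 40.2 and 34.7 CPM in WT_EE. WT_EE 2 and 3 were above every other library and WT_EE 1 was the lowest. The means of 41.6 ± 8.91 CPM (n = 4, SD) and 49.5 ± 22.5 CPM (n = 5, SD) gave a log2 fold change of 0.22 (95% interval −0.38 to 0.83, an unadjusted edgeR p of 0.458 and an exact permutation p of 0.500). Dusp1 overlaps Ergic1, a gene of the early secretory pathway with 564 counts over all libraries, on the other strand.

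Zfp36, the brake on AU-rich messages introduced above, was at 99.2, 103, 94.7 and 73.8 CPM in WT_SE and 127, 146, 103, 92.8 and 109 CPM in WT_EE. WT_EE 1, 2 and 5 exceeded every WT_SE mouse, WT_EE 3 was level with the highest of them, and WT_EE 4 lay among them. The means were 92.7 ± 13.04 CPM (n = 4, SD) and 116 ± 21.3 CPM (n = 5, SD), and the log2 fold change of 0.31 (SE 0.19, 95% interval −0.07 to 0.69) had an unadjusted edgeR p of 0.105 and an exact permutation p of 0.127. Its spread within environments was close to counting noise alone (chi-square of 1.03 per degree of freedom).

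Btg2, an antiproliferative gene induced by p53 and by growth signals, was at 175, 128, 152 and 150 CPM in WT_SE and 145, 202, 164, 207 and 171 CPM in WT_EE. WT_EE 2 and 4 were above all other libraries, and WT_EE 1 lay below 3 of the 4 WT_SE mice. The means of 151 ± 19.1 CPM (n = 4, SD) and 178 ± 26.4 CPM (n = 5, SD) gave a log2 fold change of 0.21 (SE 0.16, 95% interval −0.10 to 0.53), with an unadjusted edgeR p of 0.177 and an exact permutation p of 0.167.

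Ordered by their mean level over the 9 libraries, Jun (175 ± 24.8 CPM, n = 9, SD), Btg2 (166 ± 26.1 CPM) and Junb (158 ± 26.1 CPM) led and did not differ from each other beyond their spread. Zfp36 (105 ± 20.9 CPM) and Fos (95.7 ± 45.5 CPM) came next and overlapped. Dusp1 (46.0 ± 17.3 CPM), Egr1 (45.7 ± 14.9 CPM), Atf3 (37.4 ± 12.5 CPM) and Ier2 (33.6 ± 12.03 CPM) formed a lower set within their spread, and Fosb (5.12 ± 4.55 CPM) was last. Genes as different in role as the AP-1 partner Jun and the antiproliferative Btg2 thus shared a level. Their coefficients of variation, 14.2% and 15.7%, were the smallest, against 47.5% for Fos. Counting noise adds less to this measure at high counts. Relative to counting noise, Zfp36 had the least spread, with a chi-square of 1.03 per degree of freedom against 1.31 for Jun and 1.23 for Btg2. The ratio of Fos to Jun molecules within a library ran from 0.164 in WT_SE 2 to 1.11 in WT_EE 5, and WT_EE 5 was the only library with more Fos than Jun.

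Summed over the 10 genes, the level was 893, 649, 771 and 850 CPM in WT_SE and 812, 1081, 905, 872 and 981 CPM in WT_EE. WT_SE 2 was the lowest and WT_EE 2 the highest, and WT_EE 1 and 4 lay inside the WT_SE range. Of the 9 genes with a mean of at least 10 counts, all 9 were above their own mean in WT_EE 2 and 1 was in WT_SE 2, while the other 7 libraries had 3 to 6. Those 2 libraries also differed in the smooth muscle markers (2841 CPM in WT_EE 2, 1540 CPM in WT_SE 2) and in Slc10a2 (3 and 103 counts), whose part in the levels was not tested beyond the covariate fits.

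**Figure D3:**
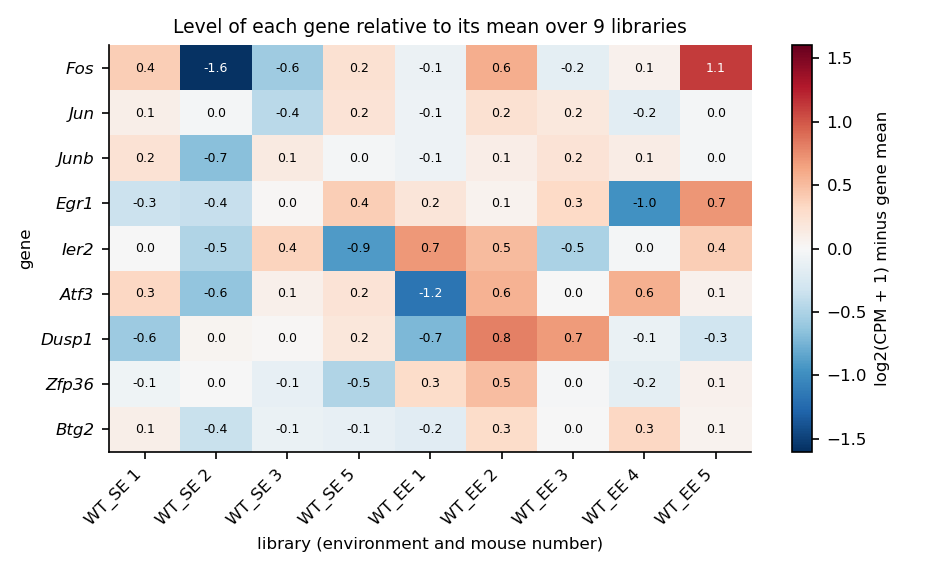
Level of the 9 genes with a mean of at least 10 counts (rows) in each library (columns), as log2(CPM + 1) minus the mean of the gene over the 9 libraries, printed in each cell and coloured red above and blue below the mean. WT_EE 2 is above or at the mean in all 9 genes, Fos in WT_SE 2 is the lowest cell, and most other columns mix both colours.

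Pairs of these genes were compared across the 9 mice on log2(CPM + 1) values. Of the 36 pairs 28 had a positive Pearson r, with a median of 0.19 and a range from −0.39 to 0.78, and the median within environments was 0.09. By two-sided permutation tests 4 pairs had an unadjusted p under 0.05 and 0 passed Benjamini-Hochberg adjustment over the 36. The closest pair was Atf3 and Btg2, with r = 0.78 (permutation p = 0.0112, adjusted 0.346) and rho = 0.83 (permutation p = 0.00827, adjusted 0.298). For this pair r was 0.83 without WT_SE 2 and WT_EE 1, the mice farthest from the median of Atf3, and 0.92 within environments. Both genes were higher on average in the libraries poor in Slc10a2, at 37.0 to 52.6 CPM against 15.1 to 37.2 CPM for Atf3 and 150 to 207 CPM against 128 to 164 CPM for Btg2. Ier2 and Zfp36 gave r = 0.74 (permutation p = 0.0192, adjusted 0.346) and rho = 0.72 (permutation p = 0.0369, adjusted 0.664). Without WT_SE 5 and WT_EE 1 their r fell to 0.45, and within environments it was 0.66. Junb and Btg2 (r = 0.68, permutation p = 0.0359, adjusted 0.416, rho = 0.58) fell to r = 0.16 without WT_SE 2 and WT_EE 1. Fos and Btg2 (r = 0.67, permutation p = 0.0462, adjusted 0.416, rho = 0.62) fell to r = 0.55 without WT_SE 2 and WT_EE 5. Fos and Jun, which form the AP-1 dimer, gave r = 0.35 (permutation p = 0.356, adjusted 0.923), and Fos and Egr1, both driven by serum response factor, r = 0.40 (permutation p = 0.280, adjusted 0.923).

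Among 5805 other genes with a mean of at least 20 counts, the 8 whose levels were most like the mean z-score of the 9 immediate early genes over the 9 mice were Golph3 (r = 0.94), Cldnd1 (0.90), S100a10 (0.88), Ddah1 (0.88), Emc6 (0.88), Tor3a (0.87), Ubxn1 (0.87) and Gm16286 (0.86). Within environments their r ran from 0.79 to 0.95. They were picked as the highest of 5805 values over 9 points that share libraries and depth, so the r values are descriptions.

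Other genes of the pathway were taken from lists written by role. The lists were chosen with earlier results of these data known, so their counts of called genes are descriptions. Of 12 other AP-1 subunits and partners 11 were tested and 1 was called, near the share of all genes (7.65%). This was Maff, a small Maf protein of the basic leucine zipper family. Maff was counted 1 to 3 times in WT_SE and 5 to 12 times in WT_EE (unadjusted edgeR p = 0.00426, adjusted 0.328, exact permutation p = 0.0159), with the WT_SE libraries all at or under the floor. The well-counted AP-1 subunits Jund (272 ± 12.02 CPM in WT_SE, 270 ± 53.8 CPM in WT_EE) and Fosl2 (187 ± 27.6 and 214 ± 22.4 CPM) had log2 fold changes of −0.03 and 0.18 with unadjusted edgeR p-values of 0.828 and 0.221. The median log2 fold change of the list was 0.12.

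Of 38 other immediate early genes outside AP-1, 37 were tested, 9 were higher in WT_EE (against 4.31% of all genes) and 0 lower, with a median log2 fold change of 0.32, against 2 of 10 higher in the AP-1 set. As this list was chosen with earlier results of these data known, the 9 of 37 cannot serve as a test against the share of all genes. The difference between the lists was not tested. After adjustment over all genes, 2 passed with edgeR, Nr4a2 and Ptgs2. Nr4a2 kept the adjusted call in 12 of 22 alternatives and Ptgs2 in 11 of 21, while both kept an unadjusted p under 0.05 in all of them. The adjusted calls were lost with DESeq2 (adjusted p of 0.2004 for Nr4a2 and 0.303 for Ptgs2), limma-voom (0.201 for both) and the L2 libraries alone (0.718 for both), with Slc10a2 as a covariate (0.0562 and 0.118), and without WT_SE 1 (0.0795 and 0.103), WT_SE 3 (0.145 for both), WT_EE 4 (0.0650 for both) or WT_EE 5 (0.0763 and 0.0852). Nr4a2 also lost it with filterByExpr (0.183) and Ptgs2 without WT_EE 2 (0.0556). Nr4a2, an orphan nuclear receptor induced by cyclic AMP and calcium signals, was counted 8, 6, 4 and 9 times in WT_SE and 20, 11, 30, 30 and 31 times in WT_EE without overlap (log2 fold change 1.68, SE 0.32, adjusted edgeR p = 0.0249, exact permutation p = 0.0159). Ptgs2, the inducible cyclooxygenase that makes prostaglandins, was counted 1, 1, 1 and 2 times in WT_SE and 6, 12, 9, 11 and 15 times in WT_EE (an adjusted edgeR p of 0.0249). The WT_SE libraries were all at or under the floor for Ptgs2, so no fold is given. Ccn2, a matricellular growth factor, was counted 1 to 30 times in WT_SE mice and 34 to 70 times in WT_EE mice, with a log2 fold change of 1.43 (SE 0.31, an adjusted edgeR p of 0.0527). Once normalized for depth, the Ccn2 levels of the groups overlapped. Nfkbiz, an inducible NF-kappaB regulator, had a log2 fold change of 0.59 (SE 0.21) with an unadjusted edgeR p of 0.00662 and an adjusted p of 0.392. Gadd45g, a stress sensor, had 1.03 (SE 0.37) with an unadjusted edgeR p of 0.00734 and an adjusted p of 0.398. By exact permutation, p was 0.0159 for Ptgs2, 0.0238 for Ccn2, 0.0714 for Nfkbiz and 0.127 for Gadd45g. Among the libraries with the L2 ending alone Ccn2 was 0.87, with an unadjusted edgeR p of 0.00626, and Gadd45g had an unadjusted edgeR p of 0.0589. With Slc10a2 or smooth muscle as a covariate the estimate for Gadd45g fell to 0.56 in both fits and the call was lost, with unadjusted edgeR p-values of 0.109 and 0.103.

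Among serum response factor and its cofactors, 1 of 6 was called, against 7.65% of all genes. Srf itself was counted 4, 2, 0 and 3 times in WT_SE and 10, 7, 12, 5 and 13 times in WT_EE, without overlap, with a log2 fold change of 1.85 (SE 0.51, unadjusted edgeR p = 7.08e-04, adjusted 0.187, exact permutation p = 0.0159). These are low counts, with 3 of the 4 WT_SE libraries at or under the floor. The kinase cascades that feed these factors had 0 of 17 tested genes called, with a median log2 fold change of −0.05. The other MAP kinase phosphatases related to Dusp1 had 0 of 8, with a median of 0.26. Both counts stand beside 7.65% of all genes called. Among the relatives of Zfp36 and Btg2, 1 of 6 was called, against 7.65% of all genes. This was Zfp36l2, another binder of AU-rich messages, counted 27 to 29 times under SE and 16 to 27 times under EE conditions. Its log2 fold change was −0.49 (SE 0.23), with an unadjusted edgeR p of 0.0380, an adjusted p of 0.605 and an exact permutation p of 0.0556. The call was lost in 9 of 22 alternatives, among them DESeq2 (an unadjusted p of 0.0833), the L2 libraries alone (0.136), and leaving out WT_SE 3 (0.104), WT_SE 5 (0.0615), WT_EE 1 (0.141), WT_EE 3 (0.0591) or WT_EE 4 (0.0744).

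Of 15 textbook targets of AP-1, 12 were tested and 3 were called (against 7.65% of all genes), all at low counts. Plau, the urokinase gene, was counted 0 to 2 times in WT_SE mice and 2 to 6 times in WT_EE mice, with an unadjusted edgeR p of 0.00458 and an adjusted p of 0.330. Sprr1a, an epithelial cross-linking protein, was at 0 to 11 counts in the first group and 6 to 28 in the second, with a log2 fold change of 1.68 (SE 0.49), an unadjusted edgeR p of 0.00132 and an adjusted p of 0.212, and 2.55 without WT_SE 1. Hmox1, heme oxygenase, was the gene called lower in WT_EE, at 1 to 5 counts against 0 to 2, with an unadjusted edgeR p of 0.0439 and an adjusted p of 0.630. By exact permutation, p was 0.00794 for Plau, 0.0556 for Sprr1a and 0.0476 for Hmox1. The Hmox1 call was lost in 11 of 21 alternatives, among them DESeq2 (an unadjusted p of 0.0869), the L2 libraries alone (0.473), both covariates (0.0550 and 0.0574), and leaving out WT_SE 1 (0.175), WT_SE 3 (0.0894), WT_EE 2 (0.0783), WT_EE 3 (0.106) or WT_EE 4 (0.0837). Heat shock genes, which answer protein-damaging stress, had 3 of 7 called higher in WT_EE, against 4.31% of all genes. The near-identical copies Hspa1b and Hspa1a had log2 fold changes of 1.30 (SE 0.27, an adjusted edgeR p of 0.0527) and 1.17 (SE 0.47, an adjusted p of 0.481), and their split of the reads is uncertain. The Hspa1a call was lost without WT_SE 2 (an unadjusted p of 0.0722) and with Slc10a2 (0.0842) or smooth muscle (0.0692) as a covariate. Hspb1, a small heat shock protein, had a log2 fold change of 1.02 (SE 0.27) with an adjusted edgeR p of 0.174, and 0.59 with Slc10a2 as a covariate. Exact permutation gave p = 0.0159 for Hspa1b and p = 0.0714 for both Hspa1a and Hspb1. Of 12 clock genes, which bear on the hour at which tissue was taken, 1 was called, near the share of all genes (7.65%). This gene, Arntl, was counted 4 to 10 times in WT_SE mice and 6 to 28 times in WT_EE mice. It had an unadjusted edgeR p of 0.0161, an adjusted p of 0.481 and an exact permutation p of 0.0952. The Arntl call was lost with limma-voom (an unadjusted p of 0.0737), the L2 libraries alone (0.144) and Slc10a2 as a covariate (0.110), and without WT_SE 1 (0.0635) or WT_EE 5 (0.122). Whether these genes and the immediate early genes moved together was not tested.

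**Figure D4:**
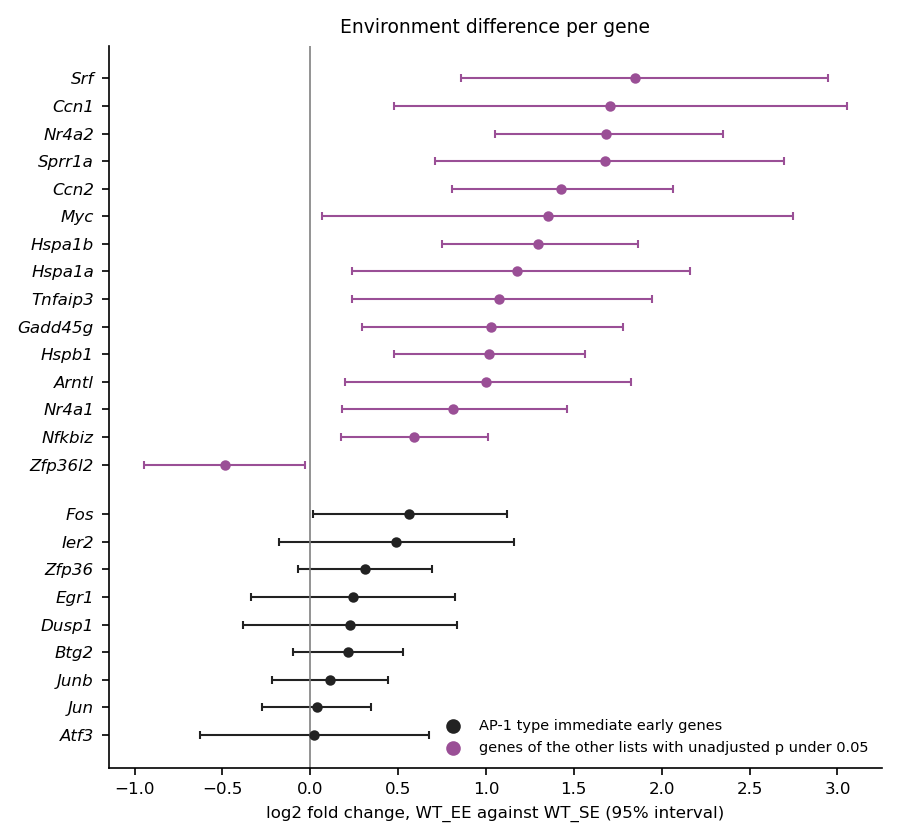
log2 fold change between WT_EE and WT_SE (points, with the 95% interval of the edgeR fit) for 9 of the 10 AP-1 type immediate early genes (black) and for the genes of the other lists called at an unadjusted p under 0.05 (purple). Fosb, Ptgs2, Maff, Plau and Hmox1 are left out because the libraries of a group were at or under the floor, and the interval of Fos, 0.02 to 1.12, is the only black one that excludes 0.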

How the data were processed

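Colon RNA of 4 WT_SE and 5 WT_EE mice was analysed from the deposited tables of whole-number UMI counts per Ensembl gene, unnormalized. The authors made 3′ libraries and aligned reads to GRCm38. Their processing notes name GRCm38.p6, fastp 0.20.0, STAR 2.7.0f, Subread featureCounts 1.6.0 and UMI-tools, without roles or order. Depth ranged from 295535 to 454043 counts per library.

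The 17441 of 22262 genes that reached 4 CPM in 1 library or more were normalized by TMM and tested in R 4.3.3 with edgeR 4.0.16 (quasi-likelihood F test, environment as sole term), with Benjamini-Hochberg adjustment across these genes. Single genes were also compared by exact permutation over the 126 ways to part 9 mice, in python 3.11.15 with scipy 1.17.1, and correlations by permuting mice. The edgeR steps were tested on simulated counts. Symbols, gene overlaps and 3′ ends came from GENCODE M21, promoters from RefSeq.

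Named genes were the members, up to 5 called genes of each list by smallest p (plus Jund and Fosl2 as AP-1 background), and the 8 genes most like the members. The members and lists were chosen with earlier results of these data known. Alternatives were other filters, normalizations, tests (DESeq2 1.42.0, limma-voom with limma 3.58.1), thresholds, a mouse-number block, the library-name ending and each mouse left out. The Slc10a2 and smooth muscle covariates were chosen after seeing the data.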

Additional observations from a re-analysis of the deposited data

Results flagged for a closer look

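Of 22 groups of values tested for a distant sample (each of the 10 genes and their sum in WT_SE and in WT_EE), 1 held such a sample. Fosb in WT_SE mouse 5 stood at 5.47 CPM while the other 3 WT_SE mice were at 0. The value rests on 2 counts, which is under the floor of 3. About 1 in 20 groups of continuous values passes this test by chance, or 1.1 of 22. That rate does not hold for Fosb in WT_SE, where with the other 3 mice at 0 any count is flagged.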

How the results depend on the processing

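The count of immediate early genes called was 2, and it was 0 with filterByExpr (9 genes tested), DESeq2, either covariate chosen after seeing the data (Slc10a2, smooth muscle), an unadjusted p under 0.01 and an adjusted p under 0.05, 1 with upper quartile normalization, limma-voom and the likelihood ratio test, and 0 to 2 with each mouse left out. Fos kept a positive estimate in 22 of 22 alternatives (0.26 to 0.84) and was called in 11. Between 8 and 10 genes had a positive fold change in every alternative. Over all genes 1334 were called, against 804 with filterByExpr, 643 with DESeq2, 688 when the name ending was a covariate, 680 with the L2 libraries alone, 7 with adjusted p under 0.05 and 410 with p under 0.01. The share of calls that were higher in WT_EE was 56.3%, and 45% with upper quartile normalization and 44.8% with the smooth muscle covariate. Estimates that changed sign belonged to genes without a call. Jun (0.04) was −0.0065 with upper quartile normalization, −0.0071 with Slc10a2, −0.072 with the name ending, −0.059 with the L2 libraries alone, and −0.06 to 0.13 with each mouse left out. Junb (0.11) was −0.05 to 0.23 with each mouse left out. Atf3 (0.02) was −0.020 with upper quartile normalization, −0.085 with limma-voom, −0.29 with Slc10a2, −0.26 with smooth muscle, and −0.15 to 0.25 with each mouse left out. Apart from the smaller number of genes or samples that some settings leave, the cause was not tested.

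Mouse numbers are shared by both environments, but mice with a shared number are different animals. Their deviations from the group means correlated at −0.02, 0.03, 0.16 and 0.17 over 5812 genes for numbers 1, 2, 3 and 5. Mice with different numbers were not compared in this way, so these values cannot decide whether the numbers pair the mice. With the mouse number as a replicate block (WT_EE mouse 4 has no partner), 1 immediate early gene was called, Fos (0.63, an unadjusted edgeR p of 0.00347), Atf3 was −0.14 and 1170 genes were called over all. Depth limits Fosb, Maff, Ptgs2, Plau and Srf, whose WT_SE counts were at or near 3.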
